A study of Mus musculus with 54 samples.

Results

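The cerebellar neuron genes described here are 10 genes that mark granule and Purkinje cells: Cbln1, Cbln3, Neurod1, Fat2, Zic1, Zic2, Zic4 and Calb2 for granule cells, and Pcp2 and Pvalb for Purkinje cells. They were chosen by symbol as known markers of these cells, out of 54232 genes that are counted in each library. Earlier results of these data were known when the genes were chosen. Each gene was found under 1 gene identifier. The study treated mice with Cmpd60, an inhibitor of the histone deacetylases HDAC1 and HDAC2, and sequenced messenger RNA of the brain, kidney and heart. The 20-month group held male BL6 mice given 22.5 mg/kg Cmpd60 (6 brains) or vehicle (6 brains) by daily intraperitoneal injection for 14 days. The second cohort held mice of 6 to 7 months on the BL6 background under the same injections: APPSWE-1349 mice, which carry a transgene for human amyloid precursor protein with the Swedish mutation (4 Cmpd60, 6 vehicle), and littermates without it (5 Cmpd60, 5 vehicle). The promoter of the transgene is not given in the sources used here, and neither is the part of the brain that was homogenized. The labels do not say that each library came from a separate mouse, so p-values measure the spread between these libraries. Libraries are called by the number in their label, with an s before it in the younger cohort.

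Granule cells are the small excitatory neurons of the cerebellar cortex and among the most numerous neurons of the brain. Their axons, the parallel fibers, synapse on the dendrites of Purkinje cells, the inhibitory output neurons of the cerebellar cortex. The granule cell secretes Cbln1, which helps to hold this synapse together, and Cbln3, which is secreted as a complex with Cbln1. Cbln3, Fat2 and Pcp2 are made almost only in the cerebellum, whereas Neurod1, Zic1, Zic2 and Calb2 are known also from the olfactory bulb, Cbln1, Zic1 and Zic4 also from the thalamus or habenula, and Pvalb also from interneurons of the cortex. In bulk RNA of brain, fewer cells of a type and less RNA per cell cannot be told apart.

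The promoter sequences are shown here for 4 granule genes and 1 Purkinje gene, because these genes went up and down together between the libraries of 20-month brains. The RefSeq table of promoters (GRCm38.p6) held 11 windows of 300 bases for 7 of the 10 genes, and none for Cbln1, Zic2 and Calb2. Each sequence below is the part before the annotated start of transcription, 5′ to 3′ on the strand of the gene, and capitals mark a match on either strand to the E-box CANNTG, to CAGATG (a form of the E-box bound by NeuroD factors), to CAGCAGG (bound by ZIC factors), to the GC box GGGCGG or to TATAAA.
Cbln3 upstream of the start, chr14:55884257-55884506, minus strand: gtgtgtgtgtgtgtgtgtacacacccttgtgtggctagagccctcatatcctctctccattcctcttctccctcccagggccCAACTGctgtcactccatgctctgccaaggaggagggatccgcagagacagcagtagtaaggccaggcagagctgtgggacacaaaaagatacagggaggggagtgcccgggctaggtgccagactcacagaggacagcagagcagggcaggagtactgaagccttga
Neurod1 upstream of the start, chr2:79456637-79456886, minus strand: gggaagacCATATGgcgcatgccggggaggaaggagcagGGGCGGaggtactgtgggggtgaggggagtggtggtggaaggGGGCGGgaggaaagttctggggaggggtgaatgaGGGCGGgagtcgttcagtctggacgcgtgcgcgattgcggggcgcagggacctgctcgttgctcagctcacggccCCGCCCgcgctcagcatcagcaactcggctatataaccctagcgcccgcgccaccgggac
Zic1 upstream of the start, chr9:91365769-91366018, minus strand: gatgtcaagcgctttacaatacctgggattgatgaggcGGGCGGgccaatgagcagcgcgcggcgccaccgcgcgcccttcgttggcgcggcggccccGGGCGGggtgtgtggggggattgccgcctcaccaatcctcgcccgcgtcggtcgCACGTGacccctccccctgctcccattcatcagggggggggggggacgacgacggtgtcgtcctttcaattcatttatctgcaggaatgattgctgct
Zic4 upstream of the start, chr9:91368722-91368971, plus strand: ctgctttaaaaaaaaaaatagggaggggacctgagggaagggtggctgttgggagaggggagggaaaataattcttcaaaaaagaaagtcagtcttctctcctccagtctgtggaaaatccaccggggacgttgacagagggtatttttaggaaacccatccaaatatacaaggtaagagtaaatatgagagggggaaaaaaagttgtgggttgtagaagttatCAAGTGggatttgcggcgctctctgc
Pcp2 upstream of the start, chr8:3625548-3625797, minus strand: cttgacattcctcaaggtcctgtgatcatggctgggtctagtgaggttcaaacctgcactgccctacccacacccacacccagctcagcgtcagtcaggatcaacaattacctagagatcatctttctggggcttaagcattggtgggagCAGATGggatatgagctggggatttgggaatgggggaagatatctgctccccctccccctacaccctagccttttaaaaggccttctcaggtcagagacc
The windows of Neurod1 and Zic1 were rich in G and C (66.7% and 65.3%) and held 4 and 3 GC boxes, whereas the windows of Cbln3, Zic4, Fat2, Pcp2 and Pvalb held none. GC boxes occurred in 35.7% of the 32851 windows of all genes. The E-box, which occurred in 72.3% of all windows, was found once in the windows of Cbln3, Neurod1, Zic1 and Fat2 and 2 times in that of Zic4. CAGATG occurred in 17.2% of all windows and was found here in the first 2 windows of Pcp2. CAGATG is itself an E-box, so each of its matches counts under both. CAGCAGG, in 10.5% of all windows, was found in the window of Fat2, and TATAAA, in 13.6% of all windows, was found in the third window of Pcp2. No letter motif was therefore shared by all of the genes shown other than the E-box, which most promoters hold. The annotated starts of Zic1 and Zic4 lay 3204 bases apart on chromosome 9 of GRCm38.p6, on opposite strands and facing away from each other.

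The 12 brain libraries of 20-month mice held between 26402957 and 57430113 counts on genes, and the 20 libraries of the younger cohort between 25052335 and 55871402. Levels are in CPM (counts scaled to the TMM-adjusted library size), and 0 counts in the shallowest brain would leave room for 0.12 CPM. Every gene of the set was far above this in every brain. The lowest count of any of them in any brain was 234 reads (Zic4). The number of genes detected ranged from 24939 to 28017 in the 20-month brains but from 15044 to 24821 in the younger cohort, where libraries of similar depth differed widely in the number of genes. The biological coefficient of variation over all genes was 0.114 in the 20-month brains and 0.742 in the younger cohort. In the labels library s139 is an APPSWE mouse on vehicle, while the study's own table heads it as Cmpd60-treated. It is kept as labelled, and results of the APPSWE mice are given also without it and with it as Cmpd60-treated.

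Levels are compared between genes as CPM per kilobase of annotated exon, scaled with TMM. In the 20-month brains the median over 12 libraries was highest for Pvalb (107 CPM per kb), the calcium-binding protein of Purkinje cells and fast-spiking interneurons. Calb2, which encodes calretinin, followed at 71.9 CPM per kb, then Cbln1 at 47.6 CPM per kb, Cbln3 at 35.6 CPM per kb and the zinc finger transcription factor Zic1 at 30.3 CPM per kb. Lower levels were found for Neurod1, a basic helix-loop-helix transcription factor (18.1 CPM per kb), Zic2 (15.6 CPM per kb), the Purkinje cell protein Pcp2 (14.1 CPM per kb) and Fat2, an atypical cadherin of parallel fibers (7.37 CPM per kb). Zic4 was lowest at 1.16 CPM per kb. The ranges of neighbors in this order overlapped, with the exception of Zic4, whose highest library (1.5 CPM per kb) lay below the lowest library of Fat2 (3.61 CPM per kb). The order of the genes was the same in the younger cohort, from Pvalb at 120 CPM per kb to Zic4 at 1.14 CPM per kb. Exon lengths were the union of all annotated exons, which understates the level of genes with rarely used exons.

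Outside the brain, levels were checked against the labelled tissue, and all 10 genes were far below their level in brain. Neurod1 and Calb2 had 0 counts in all 11 kidney and all 11 heart libraries. The highest count of Pcp2, Zic1, Zic2 or Zic4 in any of these 22 libraries was 4. Fat2 had between 9 and 60 counts per kidney library (up to 2.33 CPM). Pvalb reached between 1.27 and 10.2 CPM in the kidney, where it is known from the distal tubule, and between 0.12 and 1.2 CPM in the heart. Cbln1 had between 2 and 36 counts per heart library.

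In the brains of 20-month mice, all 10 genes had a lower fitted level with Cmpd60 than with vehicle, and none passed the threshold of an adjusted p below 0.05. Over all 24438 genes tested with edgeR's quasi-likelihood test, 5 passed it (0.0205%), while 48.2% of all genes had a log2 fold change below 0. The fitted log2 fold changes of the 10 genes ran from -0.66 to -0.15 with a median of -0.40, beside a median of 0.01 over all genes. At the study's own threshold for brain, an unadjusted p below 0.01, 2 of the 10 genes passed, Cbln3 and Zic1, against 4.29% of all genes. At an unadjusted p below 0.05, 6 of the 10 were lower, against 6.47% of all genes. The 10 genes moved together between libraries, so these counts are not independent of each other. The genes were also chosen with earlier results of these data known, so the shares beside them are descriptive. For none of the 10 genes were the 2 groups free of overlap, which they were for 0.925% of all genes tested.

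**Figure D1:**
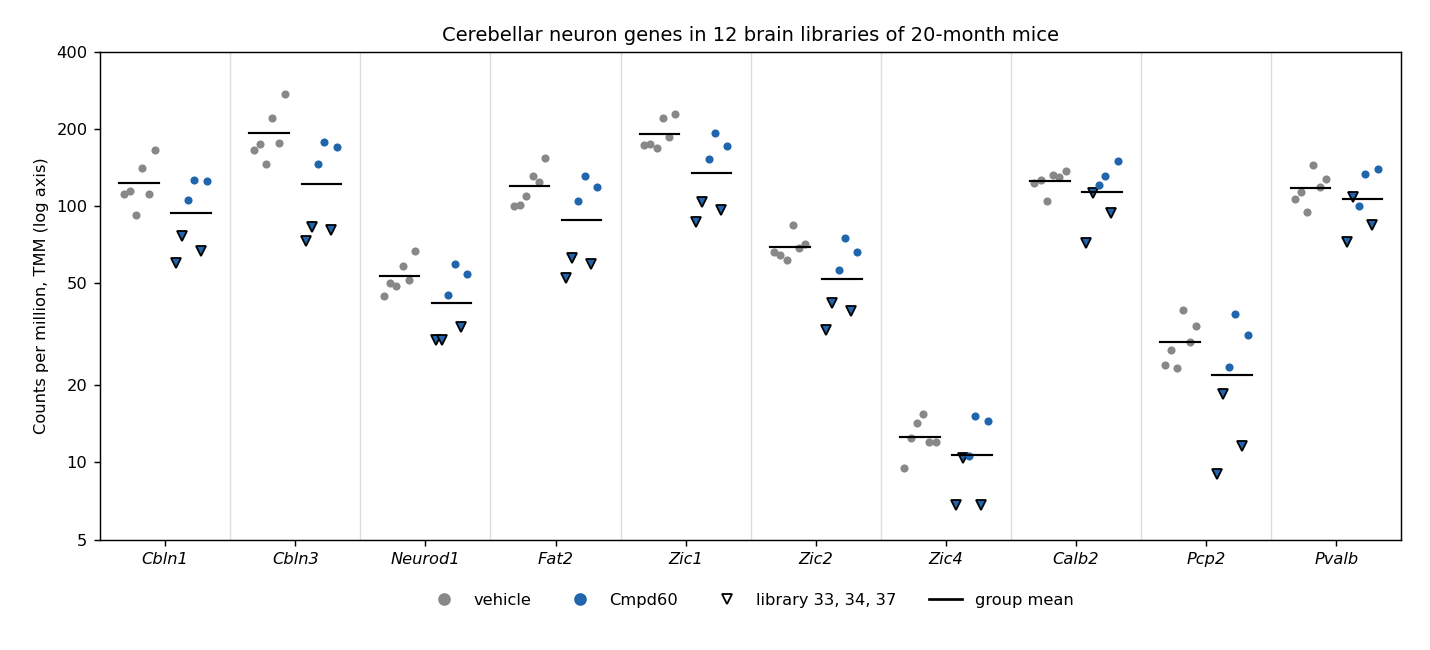
Level of each gene in each of the 12 brain libraries of 20-month mice, in CPM on a log axis, with vehicle in grey and Cmpd60 in blue. Black lines are group means (n = 6), and triangles mark libraries 33, 34 and 37, which fall below all vehicle libraries for 7 of the 10 genes.

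The secreted cerebellins and the cell surface protein of the parallel fiber were low in the same 3 libraries. Cbln3 ranged from 146.4 to 273.8 CPM with a median of 176 in vehicle brains, and from 73.3 to 178 CPM with a median of 115 in Cmpd60 brains. Libraries 33, 34 and 37, all Cmpd60, had 73.3, 82.9 and 81.1 CPM of Cbln3, whereas the other Cmpd60 libraries (147, 178 and 170 CPM) lay within the vehicle range. The Cmpd60 group as a whole was therefore made of libraries far below the vehicle range and libraries inside it. The log2 fold change of Cbln3 was -0.66 ± 0.21 (SE), with an unadjusted p of 0.00475 and an adjusted p of 0.189 in edgeR. Cbln1 had 60.2, 76.3 and 66.7 CPM in libraries 33, 34 and 37, against a vehicle range of 92.7 to 165 CPM with a median of 113. The groups overlapped through libraries 35, 36 and 38 (106 to 127 CPM), and the log2 fold change was -0.39 ± 0.17 (adjusted p = 0.326, edgeR). Fat2 went the same way, with 52.6 to 62.7 CPM in the 3 low libraries, 105 to 132 CPM in the other Cmpd60 libraries and 99.9 to 154.7 CPM in vehicle brains. Its log2 fold change was -0.44 ± 0.19 (adjusted p = 0.322, edgeR).

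Among the transcription factors, Zic1 showed the clearest difference. It ranged from 169 to 229 CPM in vehicle brains (median 180) and from 86.5 to 194 CPM in Cmpd60 brains (median 129), with 86.5, 104 and 96.7 CPM in libraries 33, 34 and 37. Its log2 fold change was -0.515 ± 0.160 (unadjusted p = 0.00472, adjusted p = 0.189, edgeR). Zic2 ranged from 61.6 to 84.4 CPM with vehicle and from 32.8 to 75.5 CPM with Cmpd60, a log2 fold change of -0.41 ± 0.155 (adjusted p = 0.264, edgeR). Both genes encode zinc finger proteins that granule cells keep making in the adult. Neurod1 ranged from 44.4 to 66.9 CPM with vehicle and from 29.9 to 59.7 CPM with Cmpd60 (log2 fold change -0.34 ± 0.15, adjusted p = 0.342, edgeR). Zic4, the neighbor of Zic1, was less regular: library 34 (10.4 CPM) was not below the vehicle range of 9.51 to 15.5 CPM, while libraries 33 and 37 (6.83 CPM in each) were. Its log2 fold change was -0.23 ± 0.175 (adjusted p = 0.601, edgeR).

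The Purkinje gene Pcp2 had the widest spread. It ran from 9.02 to 37.9 CPM in Cmpd60 brains, a ratio of 4.20 between the highest and the lowest library, and from 23.3 to 39.4 CPM in vehicle brains. Libraries 33, 34 and 37 had 9.02, 18.5 and 11.6 CPM of Pcp2, all below the vehicle range, and library 36 (37.9 CPM) had nearly as much as the highest vehicle brain. With this spread, a log2 fold change of -0.42 ± 0.25 did not pass the threshold (adjusted p = 0.481, edgeR), and it was -0.64 without library 36 and -0.26 without library 33. Calb2 and Pvalb, which are also made by interneurons outside the cerebellum, differed least. Calb2 ranged from 71.8 to 150 CPM with Cmpd60 and from 104 to 137 CPM with vehicle (log2 fold change -0.15 ± 0.12, adjusted p = 0.645, edgeR). Pvalb ranged from 72.2 to 140 CPM with Cmpd60 and from 95.1 to 144.6 CPM with vehicle (log2 fold change -0.15 ± 0.13, adjusted p = 0.671, edgeR). For both, library 33 was lowest and library 37 next, but library 34 lay within the vehicle range. Without library 33 the log2 fold changes of Calb2, Pvalb and Zic4 were -0.043, -0.057 and -0.127, and without library 38 those of Calb2 and Pvalb were -0.242 and -0.239, while without library 36 that of Zic4 was -0.35.

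The spread within groups was large for this set. Within groups, the SD of log2 CPM was 0.61 for Pcp2, 0.48 for Cbln3 and 0.44 for Fat2, and the lowest was 0.29 for Calb2, beside a median of 0.14 over the 15424 genes with a mean of at least 1 CPM. Pcp2 stood at percentile 99.1 of these genes, Cbln3 at percentile 97.5 and Calb2, the lowest, at percentile 86.5. Library 33 was lowest of the 12 for 9 of the genes and library 34 for the remaining one, Neurod1. Libraries 33 and 37 were among the 3 lowest for all 10 genes, and library 34 for 7 of them. At the other end, the vehicle library 30 was among the 3 highest for all 10 genes, the Cmpd60 library 36 for 9 and the vehicle library 32 for 8. The 3 low libraries had between 29646412 and 38018455 counts and between 25850 and 26475 genes detected, within the range of the other 9 libraries.

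To compare these genes with the rest of the cerebellum, an index was taken as the mean log2 CPM of 10 other granule cell genes, among them the receptor subunit Gabra6, and a second of 12 other Purkinje cell genes, among them Calb1. None of these is in the set. The granule index was 4.08 in library 33, 4.21 in library 37 and 4.23 in library 34, and between 4.62 and 5.05 in the other 9 libraries, so that a gap of 0.39 parted the 3 libraries from the rest, where no other gap exceeded 0.13. The granule index was 4.5 ± 0.38 (SD, n = 6) with Cmpd60 and 4.84 ± 0.17 (n = 6) with vehicle, a difference of -0.34 with p = 0.0866 (exact two-sided permutation test, smallest possible p 0.00216). The Purkinje index was 5.21 ± 0.43 and 5.60 ± 0.20, a difference of -0.39 with p = 0.0758 by the same exact test. Without library 36 the p was 0.0346 for the granule and 0.0325 for the Purkinje index, and without library 38 it was 0.0476 and 0.0325 (exact permutation tests). Libraries 36 and 38 had the highest indices of the Cmpd60 group, so leaving either out widened the difference. With any other single library left out the p was not below 0.05, and the difference shrank to as little as -0.251 and -0.28. Gabra6, a receptor subunit nearly confined to granule cells, had 29.8, 37.0 and 33.9 CPM in libraries 33, 34 and 37 and 60.5 to 88.6 CPM in the rest. All 10 other granule genes and all 12 other Purkinje genes had negative log2 fold changes, with medians of -0.27 and -0.35, and 3 and 6 of them had an unadjusted p below 0.05. Of all genes tested, 48.2% had negative values and 6.47% were lower at an unadjusted p below 0.05 (edgeR). En2 (-0.675 ± 0.171) and Gabra6 (-0.51 ± 0.18) stood on the granule side, and Gng13 (-0.50 ± 0.13) and Calb1 (-0.13 ± 0.10) on the Purkinje side, none with an adjusted p below 0.117 in edgeR.

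Every gene of the set followed the granule index across the 12 libraries. The share of all genes that follow it as closely was not computed, so these values do not set the 10 genes apart. Pearson's r was 0.97 for Cbln1, 0.97 for Cbln3, 0.97 for Neurod1, 0.98 for Fat2, 0.98 for Zic1, 0.98 for Zic2 and 0.96 for Pcp2, each with a permutation p of 1e-05, the smallest that 100000 resamples can give (adjusted p = 1.43e-05 over the 10 genes). It was lower for Pvalb (0.87), Calb2 (0.86) and Zic4 (0.83), with permutation p-values adjusted over the 10 genes of 0.000212, 0.000344 and 0.00149. Spearman's rho ran from 0.77 for Zic4 (permutation p = 0.0051) to 0.99 for Cbln3 and Pcp2 (permutation p = 1e-05). Since 3 libraries stood apart, a further split on the index itself was chosen after seeing the data, so its p-values are descriptive. The relation was taken within the 9 libraries above the gap, which hold vehicle and Cmpd60 mice. There r was 0.97 for Pcp2 (p = 0.000154, exact permutation test), 0.91 for Pvalb (p = 0.00148, exact) and 0.89 for Cbln1 (p = 0.000716, exact), and r was 0.48 for Zic4 (p = 0.185, exact), for which the relation over 12 libraries rests on the low ones. For the other genes r was 0.884 for Neurod1, 0.876 for Zic1, 0.875 for Zic2, 0.844 for Fat2, 0.836 for Cbln3 and 0.701 for Calb2. All genes but Pcp2 and Pvalb had a lower r there than over the 12 libraries. Without the 2 libraries farthest from the median index, 33 and 37, r stayed between 0.69 and 0.96 for 9 genes and was 0.57 for Zic4. As deviations from the group means, which take out the treatment, r ran from 0.805 for Zic4 to 0.99 for Zic1. Per unit of the index on the log2 scale, Pcp2 changed by 1.90, Cbln3 by 1.75 and Fat2 by 1.49, and Pvalb (0.79) and Calb2 (0.75) changed least.

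**Figure D2:**
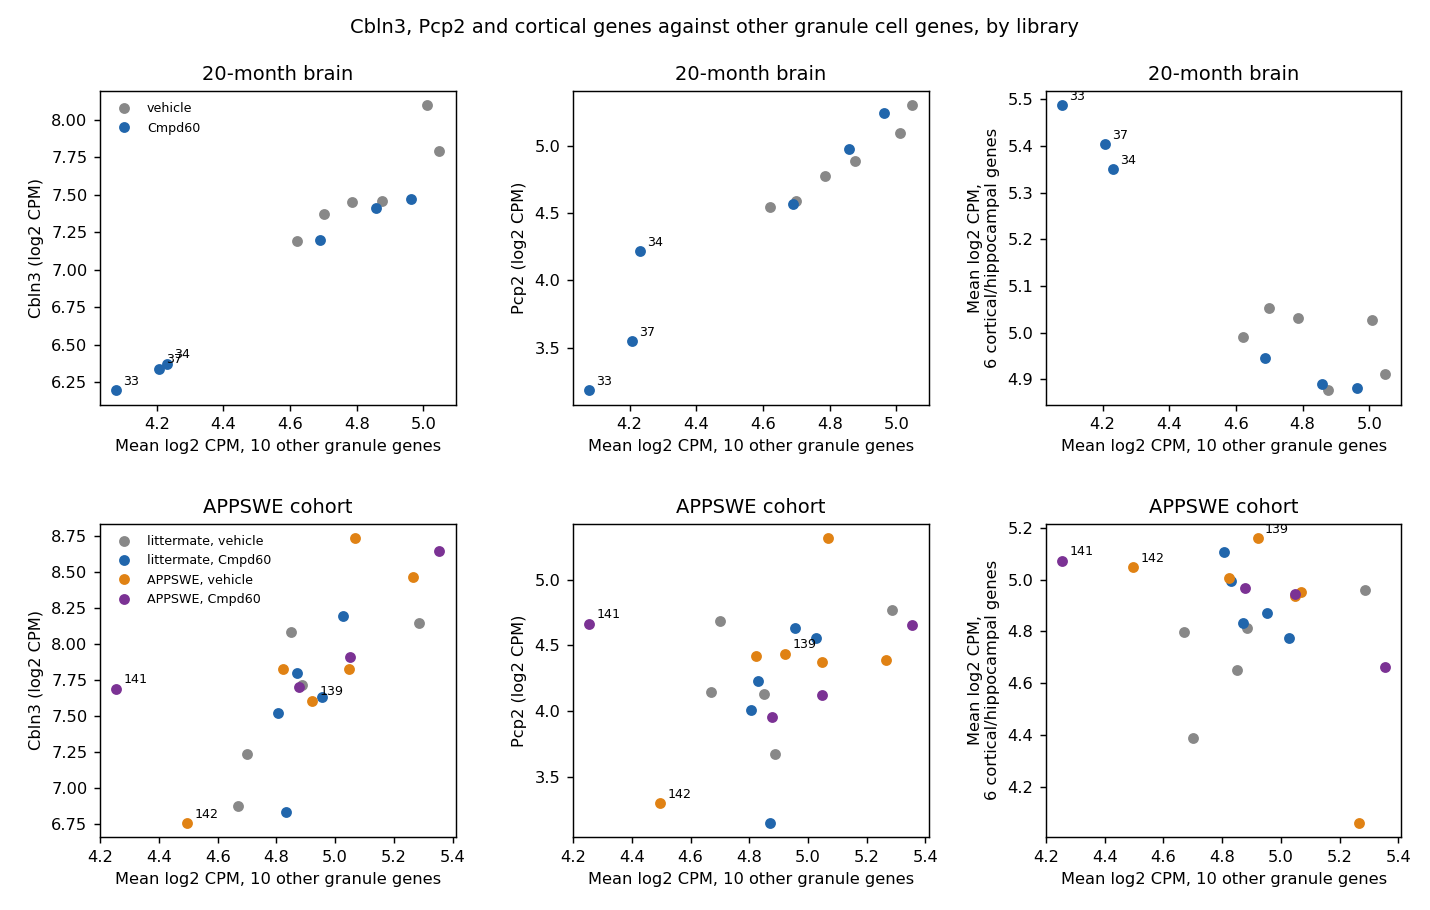
Cbln3 (left), Pcp2 (middle) and the mean of 6 cortical and hippocampal genes (right), in log2 CPM, against the mean log2 CPM of 10 other granule cell genes, with 1 point per library and color by group. In the 20-month brains (top) libraries 33, 34 and 37 lie at the low end of the granule genes and above all others for the cortical genes, while in the younger cohort (bottom) no such group of libraries stands apart.

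Cortical genes stood apart in the same 3 libraries, thalamic and habenular genes partly so, and olfactory, striatal and hypothalamic genes did not follow that split. The mean log2 CPM of 6 cortical and hippocampal neuron genes, such as Neurod6, was 5.49, 5.35 and 5.40 in libraries 33, 34 and 37 and between 4.88 and 5.05 in the other 9. All 6 had a positive log2 fold change with Cmpd60 (median 0.20), and 1 of them, Neurod6, had an unadjusted p below 0.05 in edgeR (log2 fold change 0.27 ± 0.13, adjusted p = 0.361). In the same comparison 5 of 5 olfactory bulb genes had negative log2 fold changes (median -0.61), 4 of them with an unadjusted p below 0.05. All 6 thalamic and habenular genes were negative too (median -0.58), 3 with an unadjusted p below 0.01, and 6 of 6 hypothalamic neuropeptide genes were positive (median 0.80), 3 with an unadjusted p below 0.05, among them Pomc (2.25 ± 0.69, adjusted p = 0.186 in edgeR). None of these genes passed the adjusted threshold. Of all 24438 genes tested in this comparison, 48.2% had negative log2 fold changes and 4.29% had an unadjusted p below 0.01. An unadjusted p below 0.05 was reached by 3368 of them, and 6.47% were lower at that threshold (edgeR). The thalamic index was 2.75, 3.17 and 3.00 in libraries 33, 34 and 37, but also 2.84 in library 38, beside 3.23 to 4.33 in the rest. The olfactory index was lowest in library 36 (2.02), and the hypothalamic index was highest there (3.16), although library 36 was among the 3 highest for 9 of the cerebellar genes. Striatal genes were positive in 7 of 7 (median 0.13) and GABA interneuron genes in 2 of 6 (median -0.035), and the partners and paralogs of the cerebellins had a median of 0.07. Of this last list 5 of 7 genes had positive and 2 had negative log2 fold changes. Positive values were found for 4 of 8 hindbrain and spinal genes, 0 of 5 monoaminergic, 4 of 6 choroid plexus and 1 of 4 meningeal genes, with medians of 0.00, -0.15, 0.12 and -0.08, and no gene of these lists had an adjusted p below 0.05. The part of the olfactory bulb and the thalamus in the lower levels of Zic1, Zic2, Zic4, Calb2 and Cbln1 was not tested.

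When the granule index was entered as a covariate in the edgeR fit, the median log2 fold change of the 10 genes moved from -0.40 to -0.003. Cbln1 was at 0.00 ± 0.07, Neurod1 at -0.01 ± 0.07 and Fat2 at -0.03 ± 0.07, with standard errors well under those of the fit without the index. Zic4, Calb2, Pcp2 and Pvalb then had positive values of 0.065, 0.105, 0.088 and 0.135. Cbln3 (-0.20 ± 0.07, unadjusted p = 0.00936, adjusted p = 0.365, edgeR) and Zic1 (-0.16 ± 0.05, unadjusted p = 0.00489, adjusted p = 0.316, edgeR) kept negative values. Neither passed the adjusted threshold. The share of all genes with an unadjusted p below 0.01 in this fit is not given here, so these values do not set Cbln3 and Zic1 apart. The index and the treatment overlap in these mice, and the covariate takes out what they share. The index is made of markers of the same cells and had an r of 0.83 to 0.98 with the 10 genes. Values near 0 were therefore largely set by that relation beforehand.

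**Figure D3:**
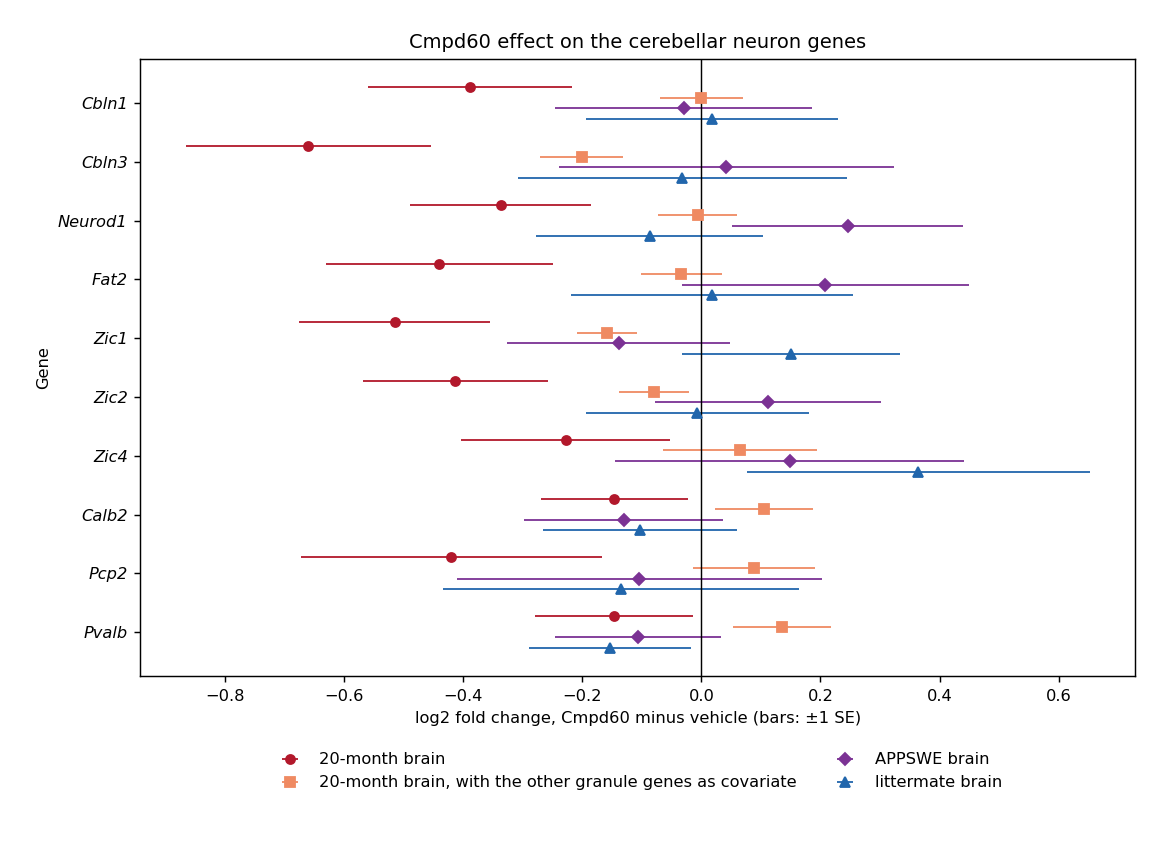
Log2 fold change of Cmpd60 against vehicle (points) with ±1 SE (bars) for each gene in the 20-month brain, in the same brain with the other granule genes as a covariate, in APPSWE mice and in littermates. In the 20-month brain all 10 points lie below 0, from -0.66 to -0.15, and with the covariate they lie between -0.20 and 0.135.

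Among themselves, the 10 genes form 45 pairs, given here as a description because they share libraries. In the 20-month brains Pearson's r ran from 0.76 (Cbln3 with Zic4) to 0.99 with a median of 0.91, and 25 pairs were above 0.90. In the 20 libraries of the younger cohort r ran from -0.20 (Zic4 with Calb2) to 0.89 with a median of 0.49, and no pair was above 0.90. The divergent neighbors Zic1 and Zic4 had an r of 0.82 in the 20-month brains and 0.23 in the younger cohort, whereas Zic1 and Zic2 had 0.98 and 0.59. Pcp2 and Pvalb, the Purkinje pair, had 0.75 in the younger cohort.

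**Figure D4:**
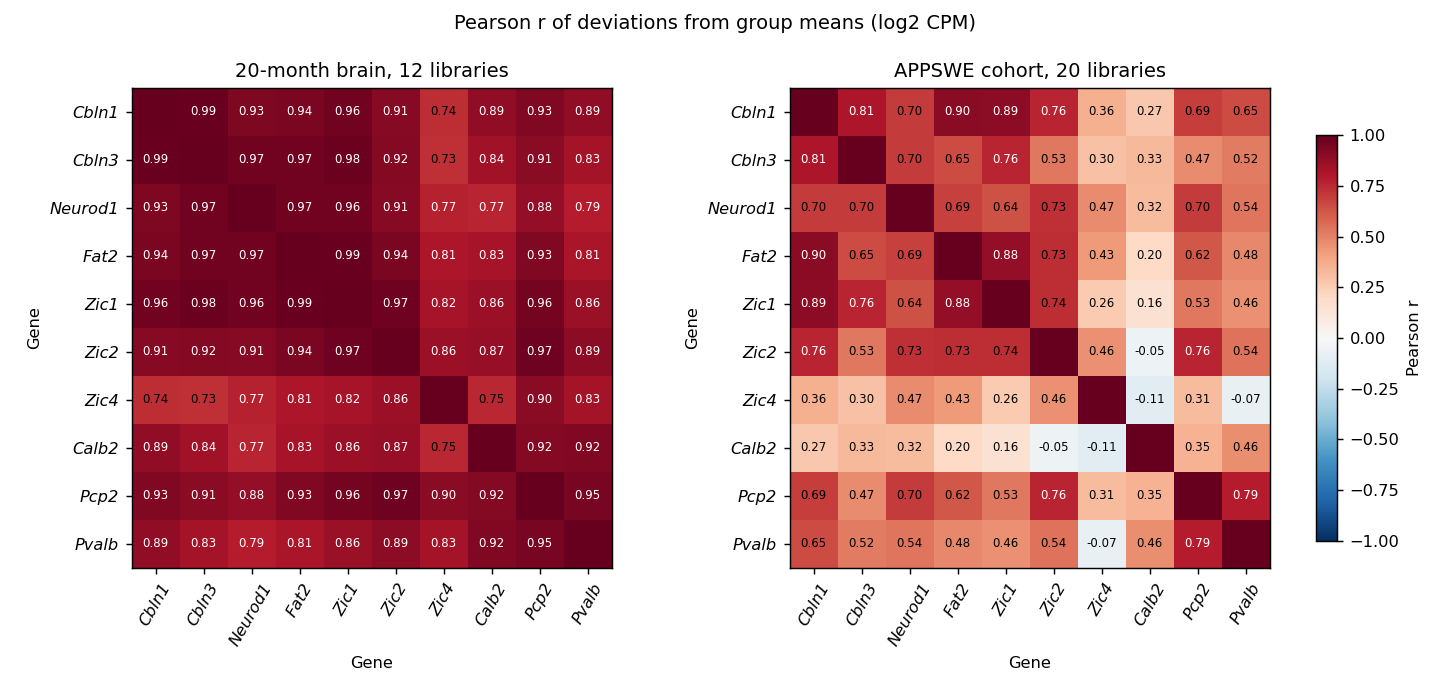
Pearson r between each pair of genes, computed on deviations of log2 CPM from the group means, in the 12 brains of 20-month mice (left) and the 20 brains of the younger cohort (right). The median over pairs is 0.91 on the left and 0.53 on the right, and Zic4 and Calb2 have the palest rows on the right.

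The genes most like the set were looked for among 15424 genes in the 20-month brains, by r of deviations from group means with the mean of the members' standardized deviations. Among the 10 most alike outside the set were Homer3 (0.99), Kank2 (0.99), Atp2a3 (0.98), Gabra6 (0.98), Car8 (0.98), Uncx (0.98), Cnksr3 (0.98), Plekhd1 (0.98) and Sbk1 (0.97). Homer3 and Car8 are on the Purkinje list, Gabra6 is on the granule list, and the other 6 named were on no list. In the younger cohort, among 15083 genes, the 10 most alike included Chn2 (0.92), Gabra6 (0.91), Arhgef33 (0.88), Tspan9 (0.87), Inpp5a (0.83), Sbk1 (0.83), Exph5 (0.82), Homer3 (0.81) and Pde1c (0.80). Gabra6, Homer3 and Sbk1 were thus among the 10 in both. Most like Cbln3 in the 20-month brains were Cbln1 (0.99), Gabra6 (0.98), Zic1 (0.98), Atp2a3 (0.98) and Afap1l2 (0.98), and most like Pcp2 were Uncx (0.98), Lhx1 (0.97), Zic2 (0.97), Ppp1r17 (0.97) and Homer3 (0.97).

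In the younger cohort no effect of Cmpd60 on these genes was detected in either genotype, and the groups overlapped for all 10 genes. Groups free of overlap were found for 1.34% of all genes in APPSWE mice and 0.507% in littermates. No gene of the 23273 tested passed an adjusted p below 0.05 for Cmpd60 in APPSWE mice, in littermates or in the mean of both (0% each, edgeR). An unadjusted p below 0.01 was reached by 2.39%, 0.404% and 2.62% of all genes, and by 0 of the 10. In APPSWE mice the log2 fold changes ran from -0.14 (Zic1) to 0.25 (Neurod1) with a median of 0.01, and 5 of 10 were positive, against a median of 0.02 over all genes. In littermates they ran from -0.15 (Pvalb) to 0.36 (Zic4) with a median of -0.02, and 4 of 10 were positive. The 95% interval was -0.51 to 0.59 for Cbln3 in APPSWE mice and -0.57 to 0.51 in littermates, and for Zic1 it was -0.51 to 0.23 and -0.21 to 0.51, so that sizeable changes in either direction lie within most of them.

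**Figure D5:**
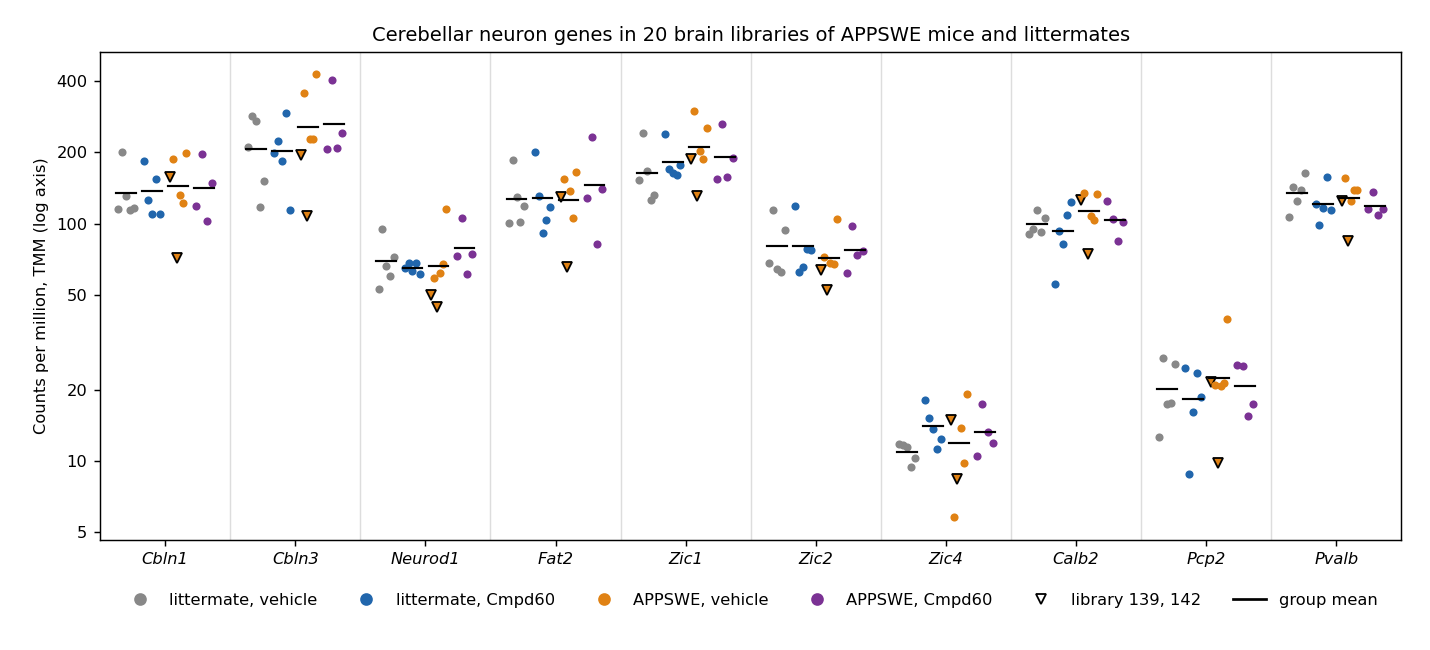
Level of each gene in each of the 20 brain libraries of the younger cohort, in CPM on a log axis, colored by genotype and treatment, with group means as black lines (n = 5, 5, 6 and 4 from left to right). Triangles mark library s139, whose treatment label and table heading differ, and library s142, which is among the 3 lowest of 20 for all 10 genes.

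Cbln3 in the APPSWE mice on Cmpd60 was 207, 402, 208 and 240 CPM, and on vehicle it ranged from 108 to 427 CPM with a median of 228. In littermates it was 199, 223, 184, 293 and 114 CPM with Cmpd60 and 211, 284, 272, 117 and 151.2 CPM with vehicle. Treated and untreated mice thus overlapped in both genotypes, with a wider range on vehicle in APPSWE mice, and the log2 fold changes were 0.04 ± 0.28 and -0.03 ± 0.28 (adjusted p = 1 for each, edgeR). Pcp2 in the APPSWE mice on Cmpd60 was 25.3, 25.1, 15.4 and 17.4 CPM, and on vehicle it ranged from 9.79 to 39.8 CPM with a median of 21.1. In littermates Pcp2 was 24.7, 8.81, 16.04, 23.4 and 18.65 CPM with Cmpd60 and 12.7, 27.3, 17.4, 17.6 and 25.65 CPM with vehicle. Here too the groups overlapped, with log2 fold changes of -0.10 ± 0.31 and -0.135 ± 0.299. Zic1 was 154.1, 263, 157 and 190 CPM in the APPSWE mice on Cmpd60 and ranged from 131 to 299 CPM with a median of 195 on vehicle (log2 fold change -0.14 ± 0.19, adjusted p = 0.983, edgeR). Zic4 had the largest value in littermates, with 18.1, 15.2, 13.6, 11.2 and 12.3 CPM on Cmpd60 and 11.8, 11.7, 11.5, 9.42 and 10.3 CPM on vehicle. All but 1 of the Cmpd60 littermates were above all vehicle littermates for Zic4, and the log2 fold change was 0.36 ± 0.29 (unadjusted p = 0.217, adjusted p = 1, edgeR). Zic1 in littermates was at 0.15 ± 0.18, and the other 6 genes had log2 fold changes between -0.15 and 0.25 in both genotypes.

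The library with the lowest levels of most of the 10 genes in this cohort was an APPSWE mouse on vehicle. Library s142 was among the 3 lowest of 20 for all 10 genes and the lowest for 6, with 108 CPM of Cbln3 and 71.8 CPM of Cbln1, and its granule index was 4.5. The highest values were in libraries s146 (vehicle, among the 3 highest for 8 genes), s143 (Cmpd60, for 6 genes) and s150 (littermate vehicle, for 5 genes). Without library s139 the median log2 fold change in APPSWE mice was -0.016 and Cbln3 (-0.03) changed sign. With library s139 counted as Cmpd60-treated the median was -0.004, and Cbln1 (0.03) and Cbln3 (-0.10) changed sign, with 0 members past the adjusted threshold in each case. The granule index was 4.88 ± 0.46 (SD, n = 4) with Cmpd60 and 4.94 ± 0.26 (n = 6) with vehicle in APPSWE mice (p = 0.838, exact permutation test). In littermates it was 4.90 ± 0.09 and 4.88 ± 0.25 (n = 5 each, p = 0.921, exact permutation test). The Purkinje index differed by 0.21 in APPSWE mice (p = 0.31, exact permutation test) and by 0.08 in littermates (p = 0.627, exact permutation test). With 4 against 6 mice the smallest p that the exact test can give is 0.00476, and with 5 against 5 it is 0.00794.

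In the younger cohort 5 of the 10 genes followed the granule index with an adjusted p below 0.05. Here too the share over all genes was not computed. Pearson's r over 20 libraries was 0.79 for Zic1 (permutation p adjusted over the 10 genes 0.0003), 0.77 for Cbln1 (0.00035), 0.69 for Cbln3 (0.0024), 0.63 for Fat2 (0.0082) and 0.58 for Zic2 (0.0154). It was 0.46 for Neurod1, 0.43 for Pvalb, 0.32 for Pcp2, 0.23 for Zic4 and 0.14 for Calb2, with adjusted permutation p-values from 0.0715 to 0.554. The Purkinje genes Pcp2 and Pvalb were set against the granule index only, and their relation to the Purkinje index was not tested. Spearman's rho was 0.83 for Zic1 and 0.82 for Cbln1 (permutation p = 1e-05 for each, the smallest possible) and 0.25 for Calb2 (permutation p = 0.286). On deviations from group means r was 0.82 for Zic1, 0.77 for Cbln1 and 0.72 for Cbln3, and 0.13 for Calb2. Library s141 had the lowest granule index (4.25) but 207 CPM of Cbln3, near the middle of the cohort. In that library Barhl1, a gene of the index, had 51 counts, while Gabra6 had 3164. Without libraries s141 and s143, the farthest from the median index, r was 0.86 for Cbln1, 0.80 for Cbln3 and 0.07 for Zic4. Gene detection in this cohort varied more than in the 20-month brains, and the SD of log2 CPM within groups had a median of 0.36 over 15083 genes, so that Cbln3 (0.57) stood at percentile 66.7 and Pvalb (0.25) at percentile 31.

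The differences between effects and between genotypes were tested directly. The effect of Cmpd60 in the 20-month brains minus its mean effect in the younger cohort was negative for all 10 genes, against 52.8% of all 25868 genes tested, and ran from -0.65 (Cbln3) to -0.005 (Pvalb) with a median of -0.43. None of the 10, and no gene in all (0%, edgeR), passed an adjusted p below 0.05. Lower at an unadjusted p below 0.05 was 1 of the 10, Zic1 (-0.51 ± 0.23, adjusted p = 0.664, edgeR), against 5.24% of all genes. Age and cohort cannot be told apart in this comparison. The difference between the effects in APPSWE mice and littermates ran from -0.29 to 0.33, with no gene of all tested past the threshold (0%) and a smallest unadjusted p of 0.233 among the 10 (edgeR). Between APPSWE and littermate mice on vehicle the 10 genes had log2 fold changes from -0.17 to 0.36 with a median of 0.11, and none was among the 0.00859% of all genes past the adjusted threshold. Zic1 had the largest of these values (0.36 ± 0.18, unadjusted p = 0.0501, adjusted p = 0.597, edgeR), with 188, 299, 131, 203, 188 and 253 CPM in the 6 APPSWE mice and 153, 241, 167, 126 and 132 CPM in the 5 littermates.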

How the data were processed

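Poly(A) RNA of mouse brain, kidney and heart was prepared by the authors with a strand-specific kit and sequenced on a NovaSeq. The authors deposited raw counts of reads per Ensembl gene, 1 table per library, made per the submitters' processing notes and the study's methods with FastQC, Trimmomatic 0.32, HISAT2 2.1.0 and HTSeq 0.11.0 using the read direction. The genome build is not given in the sources used here. Rows of HTSeq that name no gene stayed out of the library sizes.

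From these counts, TMM-scaled CPM and edgeR 4.0.16 quasi-likelihood tests (R 4.3.3) were computed. The 12 brains of 20-month mice and the 20 brains of the younger cohort (4 groups) were fitted separately, and the difference between their effects was fitted over all 32. A gene was tested if its count exceeded 2 in 3 or more libraries, with Benjamini-Hochberg adjustment over all of them. Covariation used log2 CPM with a prior count of 2 and permutation tests with 100000 resamples (scipy 1.17.1), exact for index differences and for 9 libraries. Alternatives were DESeq2 1.42.0, limma 3.58.1 (voom), other size factors and filters, each library left out, the granule index as a covariate, library s139 as Cmpd60-treated and fits of only the groups compared. The restriction to 9 libraries was chosen after seeing the data. Library depth and the floor of 3 counts cover counting error only. Scripts were tested on simulated data.

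The genes and the lists of other cell types were chosen with earlier results of these data known. All 10 genes are named in full. Of each list, counts or the median are given, with a gene of small p for some lists and Gabra6 and Calb1 always named, and genes most like the set were taken by r among genes with a mean of at least 1 CPM. A few genes are not reported here.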

Additional observations from a re-analysis of the deposited data

Results flagged for a closer look

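Among 60 combinations of a gene and a group, 3 had a library far from the rest of its group by Dixon's criterion, where chance gives about 5% of groups. Cbln1 was 200 CPM in library s150 of the littermates on vehicle, where the nearest of the other 4 was 131 CPM. Zic1 was 238 CPM in library s152 of the littermates on Cmpd60, where the nearest was 177 CPM. Pvalb was 84.9 CPM in library s142 of the APPSWE mice on vehicle, where the nearest was 125 CPM.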

How the results depend on the processing

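No gene of the set passed an adjusted p below 0.05 under any alternative run, in any comparison. With the granule index as a covariate the median log2 fold change in the 20-month brains was -0.003, and Zic4 (0.065), Calb2 (0.105), Pcp2 (0.088) and Pvalb (0.135) turned positive. In APPSWE mice Cbln1 turned positive with voom (0.04), the covariate (0.066) and library s139 as Cmpd60-treated (0.027), Cbln3 negative with the last (-0.103), and Pcp2 positive with voom (0.036). In littermates Cbln1 (-0.019) and Fat2 (-0.017) turned negative with voom. In the difference between the cohorts' effects Calb2 turned positive with voom (0.01) and the covariate (0.068), and Pvalb with the covariate (0.15). The cause was not tested.

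Leaving out 1 library at a time, the median of the set ran from -0.522 to -0.275 in 20-month brains, from -0.154 to 0.194 in APPSWE mice, from -0.108 to 0.128 in littermates and from -0.572 to -0.338 for the difference between cohorts. In APPSWE mice the ranges were -0.233 to 0.097 for Cbln1, -0.233 to 0.247 for Cbln3, -0.111 to 0.404 for Fat2, -0.257 to 0.141 for Pcp2, -0.017 to 0.252 for Zic2 and -0.01 to 0.333 for Zic4. In littermates they were -0.111 to 0.199 for Cbln1, -0.202 to 0.118 for Cbln3, -0.17 to 0.054 for Neurod1, -0.198 to 0.192 for Fat2, -0.189 to 0.15 for Zic2, -0.227 to 0.035 for Calb2 and -0.27 to 0.041 for Pcp2. For the difference between cohorts they were -0.122 to 0.086 for Calb2 and -0.106 to 0.087 for Pvalb. The granule index difference ran from -0.428 to -0.251 in 20-month brains, where libraries 36 and 38 decided the side of the threshold, from -0.21 to 0.157 in APPSWE mice and from -0.033 to 0.121 in littermates. The Purkinje index difference ran from -0.481 to -0.28, from 0.111 to 0.313 and from -0.005 to 0.166.

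Calls over all genes depended on the tool. In 20-month brains edgeR called 5 genes, DESeq2 429, voom 2, edgeR without a filter 102 and with the covariate 2, and leaving out 1 library gave 1 to 372. DESeq2 called 14 genes in APPSWE mice, 8 in littermates, 15 in the mean of both, 9 in the interaction, 28 between genotypes and 7 in the difference between cohorts, where edgeR called 2 between genotypes and 0 elsewhere. Covariation of Zic4 in 20-month brains was lost without libraries 33 and 37 (r 0.568, permutation p = 0.0805) and in the 9 libraries above the gap (r 0.483, exact permutation p = 0.185). In the younger cohort Neurod1 passed an unadjusted 0.05 with Pearson's r (permutation p = 0.0429, adjusted 0.0715) but not by rank (rho 0.335, permutation p = 0.148). Pcp2 without the 2 farthest libraries (r 0.511) and Pvalb on plain library sizes (r 0.448) or group deviations (r 0.455) passed an unadjusted 0.05 too. No paired analysis was possible because the groups share no replicate numbers.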
